A study of Gallus gallus and Dromaius novaehollandiae with 40 samples.

Results

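Messenger RNA levels were compared between the hindlimb and the flank of emu (Dromaius novaehollandiae) embryos at Hamburger and Hamilton stage 18 (HH18), a stage defined on the chick. The comparison rests on 4 of the 40 libraries that the labels describe, chosen by tissue, species and stage: hindlimb 583, hindlimb 595, flank 583 and flank 595. The samples carry no treatment or genetic change, and the labels call each of them somatopleure. The series as a whole sets emu against chick limb tissue, and its title concerns FGF signalling and the late growth of the emu forelimb. Forelimb libraries 583 and 595 of the same stage were counted in the same table. They shared the estimate of spread and are quoted where a hindlimb gene is described. The labels list 11 emu libraries at this stage, and the other 5 are not analysed here.

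The somatopleure is the outer layer of the lateral plate, with its mesoderm and the ectoderm above it. At the level of the leg its mesoderm thickens into a bud. At the flank, between wing and leg, it forms body wall and no limb. In chick and mouse, leg-level mesoderm is known for the transcription factors PITX1 and TBX4 and sends the ectoderm the growth factor FGF10. The ectodermal ridge at the tip of the bud answers with FGF8, and this loop keeps the bud growing. Emu legs grow large and emu wings stay small, so the emu hindlimb bud gives the limb that grows fully in this bird.

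None of these factors can be looked up in the emu data. The table names genes by DNOV identifiers, the files do not pair them with gene names, and 0 of its 19114 identifiers occur in the chick RefSeq gene table. Pathway members, cell type markers and sequences are therefore not given, and the tissue labels were not checked against marker genes. Genes are described by their levels in each library, and 2 that rose and 2 that fell are given by identifier. The named genes were chosen for large differences in this contrast. Their fold changes and adjusted p therefore restate that choice and are no separate support.

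Hindlimb 583 held 22779188 counts and hindlimb 595 held 14190404. Flank 583 held 13370107 counts and flank 595 held 9798323. The hindlimb was thus sequenced more deeply than the flank, with 36969592 counts in all against 23168430, and number 583 more deeply than number 595 in each tissue. The forelimb libraries, at 18336429 and 11804148 counts, lay within the same range. At least 1 read was counted for 16606 and 16188 genes in the hindlimb libraries and for 16151 and 15730 in the flank libraries. Libraries of a tissue differed by more than sampling noise, with a chi-square per degree of freedom of 19.2 for the hindlimb pair and 15.7 for the flank pair. Between those of the hindlimb 832 genes (5.96%) differed over 2-fold, and between those of the flank 1039 (7.44%). The labels do not say whether libraries came from separate embryos, so the spread behind the p-values may be technical, and it covers these libraries only.

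Of 13970 genes with enough counts to test, 1696 (12.1%) changed between hindlimb and flank at an adjusted p under 0.05. In the hindlimb 700 rose (5.01%) and 996 fell (7.13%). The test was edgeR's quasi-likelihood F test, two-sided, with Benjamini-Hochberg adjustment over all tested genes, and every adjusted p below is from it. Its fit did not pair libraries by number, since the labels do not say what the numbers mark. The closing section gives the count of called genes with the number as a block. The smallest adjusted p was 0.00531, and 4266 genes had an unadjusted p under 0.05. With 2 libraries a tissue, the calls rest on a spread that edgeR estimated across genes and over all 6 emu libraries. In bulk tissue, fewer cells of a type and less RNA per cell cannot be told apart.

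Falls were more frequent than rises, but the steepest changes were rises. Most rises were small: 414 of 700 (59.1%) were below 1 on the log2 scale, that is below 2-fold. Of 996 falls, 355 (35.6%) were that small. The median fitted log2 fold change was 0.79 among the rises and -1.28 among the falls. Past 2-fold there were 927 changed genes (6.64% of those tested), 286 rises (2.05% of tested genes) and 641 falls (4.59%). At the far end the order turned, with 56 rises and 15 falls beyond 4 on the log2 scale. Of those 56 rises, 14 had no count in either flank library and 19 had 1 to 3 counts over both. Of those 15 falls, none lacked counts in both hindlimb libraries and 8 had 1 to 3 counts. A fitted fold change against so few counts depends on the prior count, so these sizes order the genes only roughly. So 33 of the 56 steepest rises were genes with at most 3 reads in the flank.

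**Figure D1:**
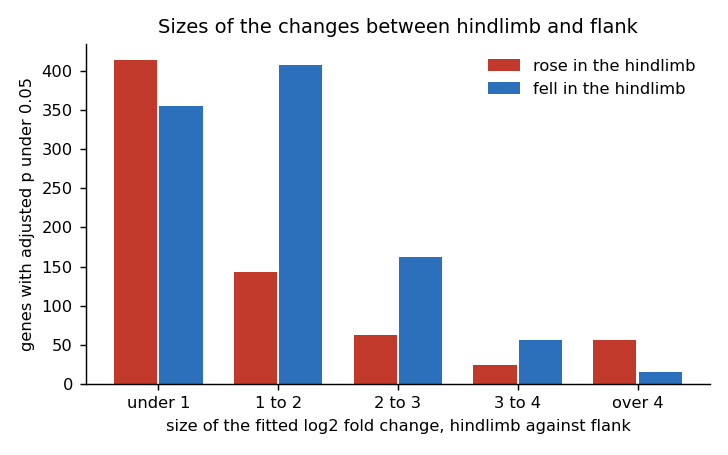
Number of genes with an adjusted p under 0.05 (vertical axis) by size of the fitted log2 fold change between hindlimb and flank (horizontal axis), for genes that rose (red, left bar of each pair) and fell (blue) in the hindlimb. Falls outnumber rises between 1 and 4, with 408 against 143 between 1 and 2, and rises outnumber falls below 1 (414 against 355) and beyond 4 (56 against 15).

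The changed genes made up a visible part of each library. Those that rose held 9.39% and 8.97% of all counts in hindlimb 583 and 595, against 5.42% and 5.74% in flank 583 and 595. Those that fell held 5.36% and 6.32% of the hindlimb counts, against 13.6% and 12.3% of the flank counts. These shares describe genes chosen by this very contrast. In the forelimb libraries, which took no part in the contrast, the genes that rose held 6.54% and 5.87% and those that fell held 10.6% and 12.6%.

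How small a change could be called depended on the level of the gene. CPM here is a gene's count per 1000000 counts of its TMM-adjusted library, with no correction for gene length. Below a mean log2 CPM of 0, 588 genes were tested and the median standard error (SE) of a log2 fold change was 0.69. There, 6 genes rose and 11 fell, and the smallest called change was 2.68. Between 4 and 6 the median SE was 0.16, and 206 of 4449 genes rose and 339 fell. Above 8 the SE was 0.10, a change of 0.33 was called, and 60 of 618 genes rose (9.71%) and 69 fell (11.2%). A change below 2-fold was therefore detectable among well-counted genes, but not among the rarest ones at this depth.

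DNOV00000023 was close to an on-off gene between the tissues. It had 1152 counts in hindlimb 583 and 608 in hindlimb 595, against 0 in flank 583 and 0 in flank 595. As levels these were 49.7 and 42.5 CPM in the hindlimb, with a mean of 46.1 ± 5.08 CPM (SD, n = 2). The hindlimb level was at least 172-fold higher than the flank, taking a floor of 3 counts in each flank library (adjusted p = 0.00551). The hindlimb libraries were close to each other and far from both flank libraries. Forelimb 583 had 4 counts and forelimb 595 had none. The identifiers on either side of it in number, DNOV00000022 and DNOV00000024, also rose. Their log2 CPM differences were 5.68 and 6.20 within 583, and 7.18 and 6.17 within 595. Whether these identifiers were counted independently of each other was not tested.

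DNOV00012085 was also without a count in the flank, but its hindlimb libraries were far apart. Hindlimb 583 had 2189 counts (94.4 CPM) and hindlimb 595 had 423 (29.6 CPM), against 0 in each flank library. Its mean of 62.0 ± 45.8 CPM (SD, n = 2) in the hindlimb was at least 231-fold above the flank floor (adjusted p = 0.0402). That bound was 110-fold without hindlimb 583 and 352-fold without hindlimb 595. Its forelimb libraries were apart in the same order, with 227 counts in forelimb 583 and 6 in forelimb 595. The adjusted p was 0.112 without hindlimb 583, 0.143 without flank 583 and 0.117 without flank 595.

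DNOV00001325 fell with little spread between libraries. It stood at 2.63 and 1.89 CPM in hindlimb 583 and 595, against 32.1 and 35.8 CPM in flank 583 and 595. The hindlimb mean of 2.26 ± 0.53 CPM was set against 34.0 ± 2.60 CPM in the flank (SD, n = 2 each). The fitted log2 fold change was -3.87, with an SE of 0.19 (adjusted p = 0.00531). Within number 583 the log2 difference was -3.54 and within 595 it was -4.15. The forelimb was higher than both tissues, at 109 and 97.7 CPM.

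DNOV00016396 fell as steeply, with more spread. Its level was 1.25 and 4.96 CPM in hindlimb 583 and 595, against 46.1 and 63.99 CPM in flank 583 and 595. The means were 3.11 ± 2.62 CPM in the hindlimb and 55.0 ± 12.7 CPM in the flank (SD, n = 2 each). The fitted log2 fold change was -4.22, with an SE of 0.63 (adjusted p = 0.0159). The forelimb libraries, at 14.3 and 25.8 CPM, lay between the other tissues. The adjusted p was 0.0779 without flank 583 and 0.0606 without flank 595.

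**Figure D2:**
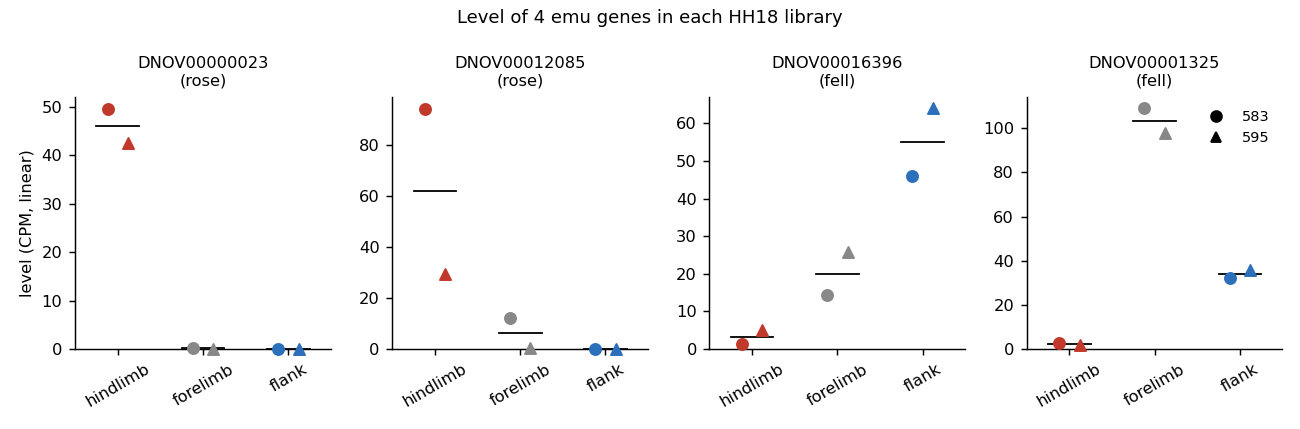
Level in CPM (vertical axis, linear and scaled per gene) of the 2 named genes that rose and the 2 that fell, in hindlimb (red), forelimb (grey) and flank (blue). Circles are libraries numbered 583, triangles 595, and black lines the mean of both. Hindlimb and flank points do not overlap for any of the 4 genes, which were named for a large difference within both numbers. Over all 13970 tested genes, both hindlimb libraries lay above both flank libraries for 30.2% and below for 30.7%. For DNOV00012085, hindlimb 583 at 94.4 CPM stands far above hindlimb 595 at 29.6 CPM.

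Genes counted in the hindlimb and absent from the flank counts formed a small group of their own. There were 35 genes with over 3 counts in each hindlimb library and none in either flank library. The reverse, over 3 counts in each flank library and none in the hindlimb, held for 3 genes. The flank was sequenced less deeply, which by itself makes a count of 0 more likely there. With at least 10 counts asked of both libraries, 17 and 0 genes remained on either side. The first number was 141 without flank 583 and 72 without flank 595, where only the remaining flank library had to be at 0. It was 120 without hindlimb 595 and 60 without hindlimb 583, where only the remaining hindlimb library had to hold over 3 counts. The second number was 27 without hindlimb 583, 23 without hindlimb 595, 6 without flank 583 and 24 without flank 595. A count of 0 limits the level only to below 0.227 CPM in flank 583 and 0.309 CPM in flank 595, from counting error alone.

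The summed hindlimb count of these 35 genes ran from 8 to 3063, with a median of 31. The 5 with at least 100 counts in each hindlimb library include both named genes that rose. Of the 35, 17 had enough counts to enter the test; having been chosen by this contrast, they support no statement about its direction. In the forelimb, 8 of the 35 had no count in either library, among them 2 of the 5 with at least 100 counts in each hindlimb library. Forelimb counts of the other genes reached 227 in forelimb 583 and 26 in forelimb 595. Within both library numbers, 27 of the 35 were higher in the hindlimb than in the forelimb. The genes were chosen for having counts in the hindlimb, while nothing was asked of the forelimb, which favours the hindlimb. The share of such genes over all those tested was not counted.

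Several of these genes also differed widely between the hindlimb libraries. For 8 of the 35 the CPM in hindlimb 583 was over 2 times that in hindlimb 595, and for 4 the reverse held. Some of these rested on few counts, such as 4 in hindlimb 583 and 5 in hindlimb 595. Over all tested genes 832 (5.96%) differed over 2-fold in log2 CPM between the hindlimb libraries. Only 17 of the 35 were tested, so these shares are not like for like. The widest gap was at 728 against 22 counts, a ratio of 20.4 in CPM, and that gene was not called. The gene with the most counts had 2797 in hindlimb 583 and 266 in hindlimb 595. Forelimb 583 was above forelimb 595 in CPM for 22 of the 35 and below it for 5. Many of these pairs were a few counts against none, and forelimb 583 was the deeper library. The share over all genes was not counted, so no trait of these genes is drawn from it. The markers that would show which cells carry these transcripts could not be looked up, and their part in the result was not tested.

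**Figure D3:**
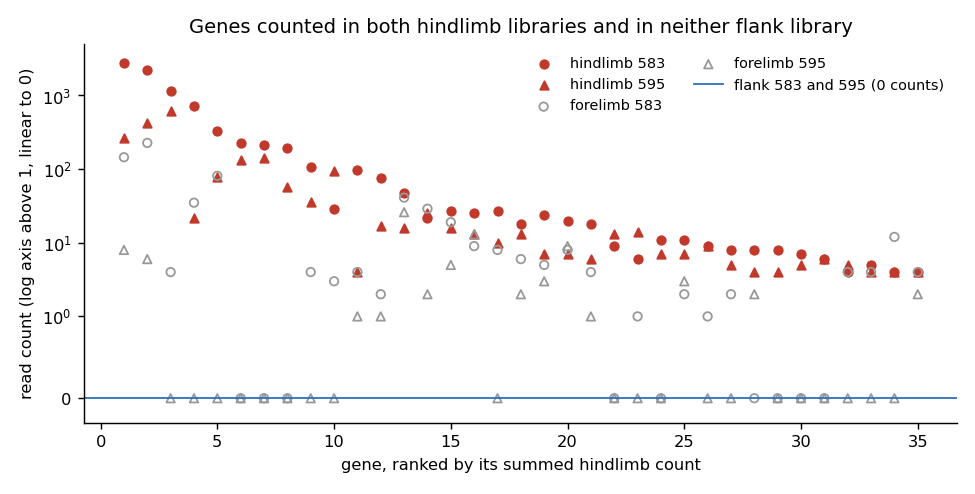
Read counts (vertical axis, logarithmic above 1 and linear down to 0) of the 35 genes with over 3 counts in each hindlimb library and none in the flank, ranked by their summed hindlimb count (horizontal axis). Red symbols are hindlimb libraries, open grey symbols forelimb libraries, circles 583 and triangles 595, and the blue line marks the 0 counts of both flank libraries; the first gene has 2797 and 266 hindlimb counts, and 8 of the 35 have no forelimb count.

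Within each library number, the hindlimb could be set against the flank of the same number. The SD over 13970 genes of the log2 difference, hindlimb minus flank, was 0.93 within 583 and 0.79 within 595. Across genes the 2 sets of differences had a Pearson r of 0.78 and a Spearman rho of 0.73. Genes are not independent replicates, and the libraries of a number may share more than the tissue, so this is a description. A difference of over 2-fold the same way in both numbers was found for 460 genes higher and 821 lower in the hindlimb. An opposite difference of that size was found for 34 genes.

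Among called genes the difference was more often larger within 583. Of the 700 genes that rose, 482 had the larger difference within 583, and of the 996 that fell, 807 had. The share over all tested genes was not counted, so no trait of called genes is drawn from this. Over all tested genes the SD of the difference was also larger within 583, at 0.93 against 0.79 within 595. The median log2 difference of the genes that rose was 0.86 within 583 and 0.73 within 595. For the genes that fell it was -1.45 within 583 and -1.10 within 595. Libraries numbered 583 were also deeper, and the part of depth in this was not tested. Among genes above a mean log2 CPM of 4, the larger difference was within 583 for 380 of 525 that rose and 563 of 685 that fell. Over all 13970 genes, 752 were over 2-fold higher in the hindlimb within 583 and 812 within 595, while 1603 were over 2-fold lower within 583 and 1027 within 595. So within 583 more genes were lower by that size, but not more were higher. With 1 library per tissue in each number, whether the numbers differ was not tested.

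**Figure D4:**
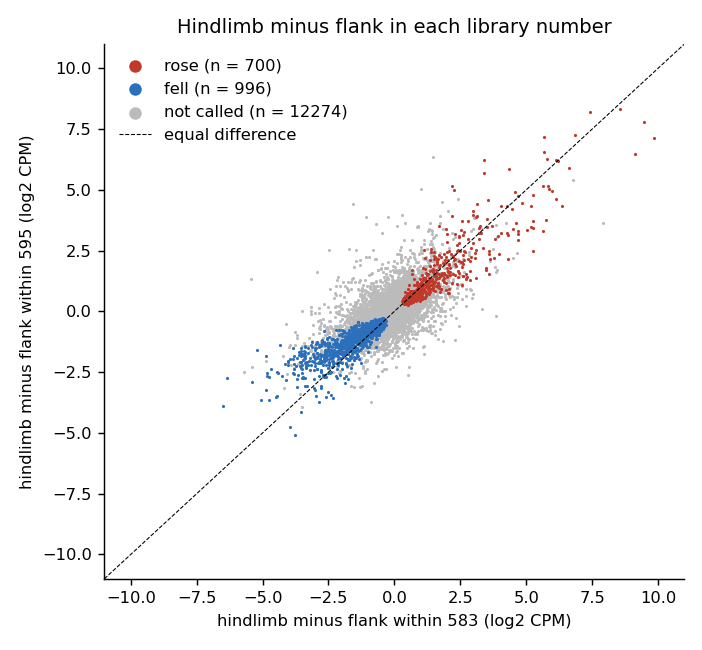
Log2 CPM difference between hindlimb and flank within libraries 583 (horizontal axis) and 595 (vertical axis), 1 point per tested gene, coloured by call (red rose, blue fell, grey not called), with a dashed line of equal difference. The 1696 called genes have the same sign within both numbers, which follows from their hindlimb and flank libraries not overlapping. Most genes that fell lie on the side of the larger difference within 583 (807 of 996). The share over all tested genes was not counted, so no trait of called genes is drawn from this.

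Both hindlimb libraries lay above both flank libraries for 4212 of the 13970 genes (30.2%), and below both for 4288 (30.7%). Every called gene is among these 8500, and the other 6804 were separated without passing the test. With 2 libraries against 2, many genes separate fully even where the tissues do not differ. Separation alone therefore marks no gene as changed. An exact permutation of 2 libraries against 2 cannot reach an unadjusted p of 0.05, so for a single gene only the fit across genes gives a call.

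The number of called genes was lower in every fit that left a library out. It was 237 without hindlimb 583 (90 rose, 147 fell) and 924 without hindlimb 595 (284 rose, 640 fell). It was 54 without flank 583 (16 rose, 38 fell) and 344 without flank 595 (109 rose, 235 fell). Leaving out either forelimb library also gave fewer calls. Each of these 6 fits had 1 library fewer to estimate the spread, and how much this lowered the calls was not tested. The forelimb libraries entered the estimate of the spread, the filter for tested genes and the scaling, but not the contrast itself. In these fits a tissue with 1 library left is assumed to vary like the others. Of the 1696 genes, all that were fitted kept their sign in each of these 6 fits, including 1695 of 1695 without flank 583. Every called gene had non-overlapping hindlimb and flank libraries, so leaving 1 library out left its sign all but fixed in advance. The remaining libraries of each fit are the same ones that made the call, so this is not an independent check.

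A core of 46 genes was called in the full fit and in each of the 4 fits without a hindlimb or flank library. Of these, 14 rose and 32 fell. Among the 14, the median level was 73.5 CPM in the hindlimb and 22.6 CPM in the flank, and the smallest log2 fold change was 1.24. Among the 32, the median level was 37.3 CPM in the hindlimb and 134 CPM in the flank, and the smallest log2 fold change was -1.01. DNOV00000023 and DNOV00001325 belong to this core, and DNOV00012085 and DNOV00016396 do not. Of the 14 core genes that rose, 1 had no flank count, and the others had at least 1 flank read. Passing in every fit favours well-counted genes, though the lowest mean log2 CPM was 3.04 among the 14 and 1.83 among the 32. Counts in both tissues may therefore partly follow from how the core was chosen.

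**Figure D5:**
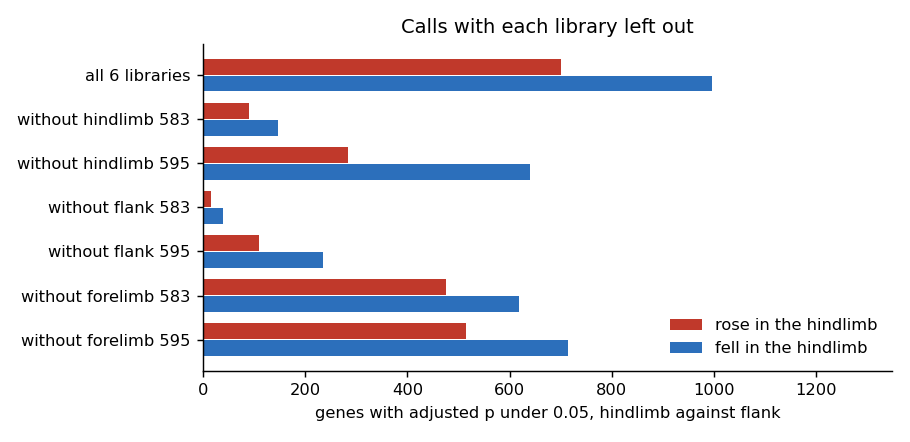
Number of genes with an adjusted p under 0.05 (horizontal axis) that rose (red, upper bar) and fell (blue) in the hindlimb against the flank, with all 6 emu libraries and with each library left out. The counts are 700 and 996 with all libraries and lowest without flank 583, at 16 and 38; falls outnumber rises in every fit shown.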

How the data were processed

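Read counts per gene for 6 emu HH18 libraries were used as the authors deposited them, whole numbers with no normalization. Per the labels' protocols, RNA was isolated with Trizol and columns, and libraries were made with a stranded TruSeq kit. Tools named by the submitters' processing notes are featureCounts, STAR and DESeq, and the build is galGal4, all without versions or roles; the genome used for emu reads and the strand setting are not given in the sources used here. Counts of overlapping, antisense or near-identical genes are therefore uncertain. No column lacked a sample.

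Counts were fitted with edgeR 4.0.16 in R 4.3.3, with TMM scaling and filterByExpr at a minimum count of 10 and minimum total of 15. The design was tissue alone over 6 libraries. The method was tried on simulated counts with the same spread for every gene and no effect of library number. Real counts may depart from both, which that trial does not cover. The common biological coefficient of variation was 0.181. Log2 CPM used a prior count of 2. The SE of a log2 fold change was worked back from the test, as its size divided by the square root of the F statistic. Alternatives were other scalings and filters, DESeq2 1.42.0, 4 libraries only, a library-number block and leaving out each library.

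Genes were named by a rule: among called genes with at least 100 counts in both libraries of the higher tissue, the 2 per direction whose smaller difference within a library number was largest. The comparison and its rules were chosen with earlier results of these data known. Intervals and floors cover counting error only.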

Additional observations from a re-analysis of the deposited data

How the results depend on the processing

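The count of 1696 genes (700 rose, 996 fell) stayed within 1.5 times under other scalings (1715 with DESeq2's size factors and 1722 with upper-quartile scaling), without a filter (2016), with at least 50 counts in both libraries of a tissue (1645) and with the 4 hindlimb and flank libraries alone (1322). DESeq2 called 2561 genes, 1682 of them among the 1696, and asking for over 2-fold as well left 927. With each library left out in turn the count ran from 54 to 1229. With the library number as a replicate block it was 2915 over 6 libraries, sharing 1695 genes, and 4135 over 4 libraries. The 583 minus 595 deviations had an r across genes of 0.378 between hindlimb and flank, 0.242 between hindlimb and forelimb and 0.245 between flank and forelimb. The labels do not say what the numbers mark, and 2 numbers cannot settle whether they pair the samples. The cause of these differences in count was not tested.

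Genes with over 3 counts in each hindlimb library and no flank count numbered 35. They numbered 60 to 141 when a library was left out and 17 at a minimum of 10 counts. Genes with over 3 counts in each flank library and no hindlimb count numbered 3, with 6 to 27 and 0 in the same order. Leaving a library out asks fewer libraries either to be at 0 or to hold over 3 counts, and the minimum of 10 was chosen after seeing the data. The 8500 genes without overlap and the 1281 over 2-fold within both numbers stayed within 1.5 times under other scalings and filters. DNOV00000023 and DNOV00001325 passed in all 14 alternatives (highest adjusted p 0.0438 by edgeR), DNOV00012085 in 11 and DNOV00016396 in 12. Among the named genes, adjusted p by edgeR with the library number as a block over 6 libraries ran from 0.0021 (DNOV00001325) to 0.0064 (DNOV00012085). Depth limits the comparison most in the flank, where 3 counts stand for 0.227 to 0.309 CPM.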

Other observations

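Identifiers that follow each other in number tended to be called together. Of 548 genes that rose and whose next number was tested, the next gene also rose for 61 (11.1%), against 5.12% over all 10832 genes with a tested next number. Of 747 genes that fell, the next gene also fell for 151 (20.2%), against 7.05% over all. Among the 35 genes counted in both hindlimb libraries and in neither flank library, 2 were followed in number by another of the 35. This was looked for after the values were seen. The files do not say whether the numbers follow position in the genome. The pattern is given as a description, with no test.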
